A study of Mus musculus with 24 samples.

Results

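The integrated stress response and the charging of transfer RNA were followed through 44 genes in macrophages grown from mouse bone marrow. The genes were chosen by symbol from a fixed list, drawn up with earlier results of these data known. All 44 were found among the 52636 genes of each deposited table. They comprised 3 kinases that sense stress, 7 transcription factors, 6 feedback and stress effectors, 6 enzymes of amino acid and one-carbon metabolism, 3 subunits of amino acid transporters and 19 cytosolic aminoacyl-tRNA synthetases.

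Hypoxia was 1% oxygen for 18 h and normoxia was 20% oxygen, with 5% carbon dioxide in each. The 3 labelled knockouts (KO-176, KO-281, KO-301) had the genotype Csf1r-iCre HuR fl/fl, and the 3 controls (HET-97, HET-102, HET-129) had the genotype Csf1r-iCre HuR +/fl. HuR, encoded by Elavl1, is a protein that binds AU-rich messenger RNA. All 6 mice expressed the ribosomal protein L10a fused to EGFP, all carried the Cre driven by the Csf1r promoter, which is active in macrophages, and all were 8 to 12 weeks old. Bone marrow cells were cultured for 6 days in medium conditioned by L cells. Each lysate gave 1 library of total poly(A) RNA and 1 of RNA bound to the tagged ribosomes, obtained by translating ribosome affinity purification (TRAP). The 24 libraries thus formed 8 groups of 3 mice, and each mouse gave 4 libraries. In the sentences below the 3 values of the labelled knockouts follow the order KO-176, KO-281 and KO-301, and the 3 values of the controls follow the order HET-97, HET-102 and HET-129.

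The integrated stress response joins several stresses to 1 step of translation. Kinases that sense haem shortage, unfolded protein in the endoplasmic reticulum or uncharged transfer RNA phosphorylate the initiation factor eIF2, which slows protein synthesis in general while the messenger RNA of the transcription factor ATF4 is translated more. ATF4, with C/EBP partners and CHOP, then raises genes for amino acid synthesis, amino acid transport and transfer RNA charging, together with inhibitors that shut the response down. Macrophages use the pathway when amino acids run short, and the phosphorylation of eIF2 itself is not visible in RNA levels.

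Values were deposited in TPM, a share of each library scaled to transcript length, so that the sequencing depth of a library was unknown. Genes with at least 1 TPM in 3 libraries of a fraction were tested, which left 12403 genes in total RNA, 11676 in TRAP RNA and 43 of the 44 members in each. Slc7a11 was the member below this limit. Macrophage markers summed to 10528 to 20309 TPM in TRAP RNA and 14095 to 26112 TPM in total RNA. Markers of B cells and mast cells stayed below 1 TPM in every library, as did the neutrophil markers Ly6g, Mpo and Elane. The summed neutrophil markers reached 89.5 TPM and the summed fibroblast markers 60.4 TPM in libraries of mouse KO-301, against medians of 9.19 and 8.64 TPM over the total RNA libraries. Mitochondrial and ribosomal protein transcripts took between 10.8% and 29.4% of a library. Elavl1 in total RNA was at 29.4, 34.9 and 26.1 TPM in the labelled knockouts and 21.2, 59.8 and 24.9 TPM in the controls under hypoxia, and at 35.1, 34.8 and 36.1 TPM and 29.9, 30.8 and 35.7 TPM in the same mice under normoxia. The values of the targeted gene overlapped between the genotypes, with differences of -0.08 ± 0.39 under hypoxia and 0.14 ± 0.16 under normoxia (log2, SE), and a sum over the gene cannot show whether 1 exon was lost. Genotypes are written as labelled for that reason.

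Under hypoxia the messenger RNAs of ATF4, of its relatives ATF5 and CHOP and of 6 tRNA synthetases fell in total RNA. With each mouse as its own control, limma called 12 of the 43 members lower and 0 higher at an adjusted p under 0.05. The same test called 2.40% of all 12403 genes lower and 1.56% higher. Comparisons of the members with all genes are descriptions, because the list was drawn up with earlier results of these data known. The called members were Atf4, Atf5 and Ddit3 among the transcription factors, Chac1 among the effectors, Asns and Mthfd2 among the enzymes, and the synthetase genes Aars, Cars, Eprs, Nars, Tars and Yars. The median change over the members was -0.26 on the log2(TPM + 1) scale, against -0.01 over all genes tested, and 6 of the 43 members lay above 0, against 47.8% of all genes. At an unadjusted p under 0.05, 23 members were lower and 1 was higher, against 12.7% and 9.91% of all genes. In 23 members the hypoxic value was lower in 6 of 6 mice, which held for 9.28% of all genes, and 0 members were higher in 6 of 6 mice, which held for 6.88%. The genes known to respond to hypoxia that were set as a check, Egln3, Ankrd37, Bnip3 and Pgk1, were all called higher, with changes of 2.02 ± 0.19, 1.59 ± 0.17, 0.97 ± 0.11 and 0.75 ± 0.05 (SE, n = 6). The number of called members depended on each mouse, at 2 without KO-176, 7 if KO-281 was left out, 4 if KO-301 or HET-129 was, 1 if HET-97 or HET-102 was, and 0 if KO-301 and HET-129 both were. It was also 0, as over all genes, when limma did not treat libraries of a mouse as a block, and 5 with no filter on low values. Over the 6 omissions of 1 mouse, the call was kept in 6 for Atf4, 4 for Cars, 3 for Atf5 and Ddit3, 1 for Chac1, Asns and Nars (without KO-281) and 0 for Mthfd2, Aars, Eprs, Tars and Yars. The summed neutrophil markers had a median of 11.5 TPM (range 5.96 to 89.5) under hypoxia and 7.29 TPM (5.74 to 58.6) under normoxia in total RNA, with S100a8 and S100a9 as the only ones above 1 TPM, and the summed fibroblast markers 9.72 TPM (1.69 to 49.8) and 7.73 TPM (2.77 to 60.4). Their part in the changes was not tested. Because bulk RNA was measured, fewer cells of a type and less RNA per cell cannot be told apart.

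In TRAP RNA the same direction was seen with fewer calls. Limma called 0 of the 43 members in either direction, 3 of 11676 genes higher (0.0257%) and 1 lower (0.00856%). At an unadjusted p under 0.05, 20 members were lower and 0 higher in TRAP RNA, against 6.69% and 7.98% of all genes. The median change over the members was -0.27 in TRAP RNA, against 0.03 over all genes, and 9 members lay above 0, against 55.5% of all genes. Values were lower in 6 of 6 mice in 14 members, against 4.87% of all genes, and higher in 6 of 6 in 0, against 5.33%. Of the 4 check genes Egln3 and Ankrd37 were called higher. All 12 members called in total RNA lay below 0 in TRAP RNA, 10 of them in 6 of 6 mice. The 14 members were also lower in 6 of 6 mice in total RNA, a pattern in both fractions held by 2.45% of the 11420 genes tested in both. These were Atf4, Atf5, Ddit3, Ppp1r15b, Trib3, Chac1, Asns, Mthfd2, Slc7a5, Eprs, Nars, Sars, Tars and Yars. The median standard error of a gene was 0.17 in TRAP RNA and 0.11 in total RNA. The TRAP and total libraries came from the same lysates.

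**Figure D1:**
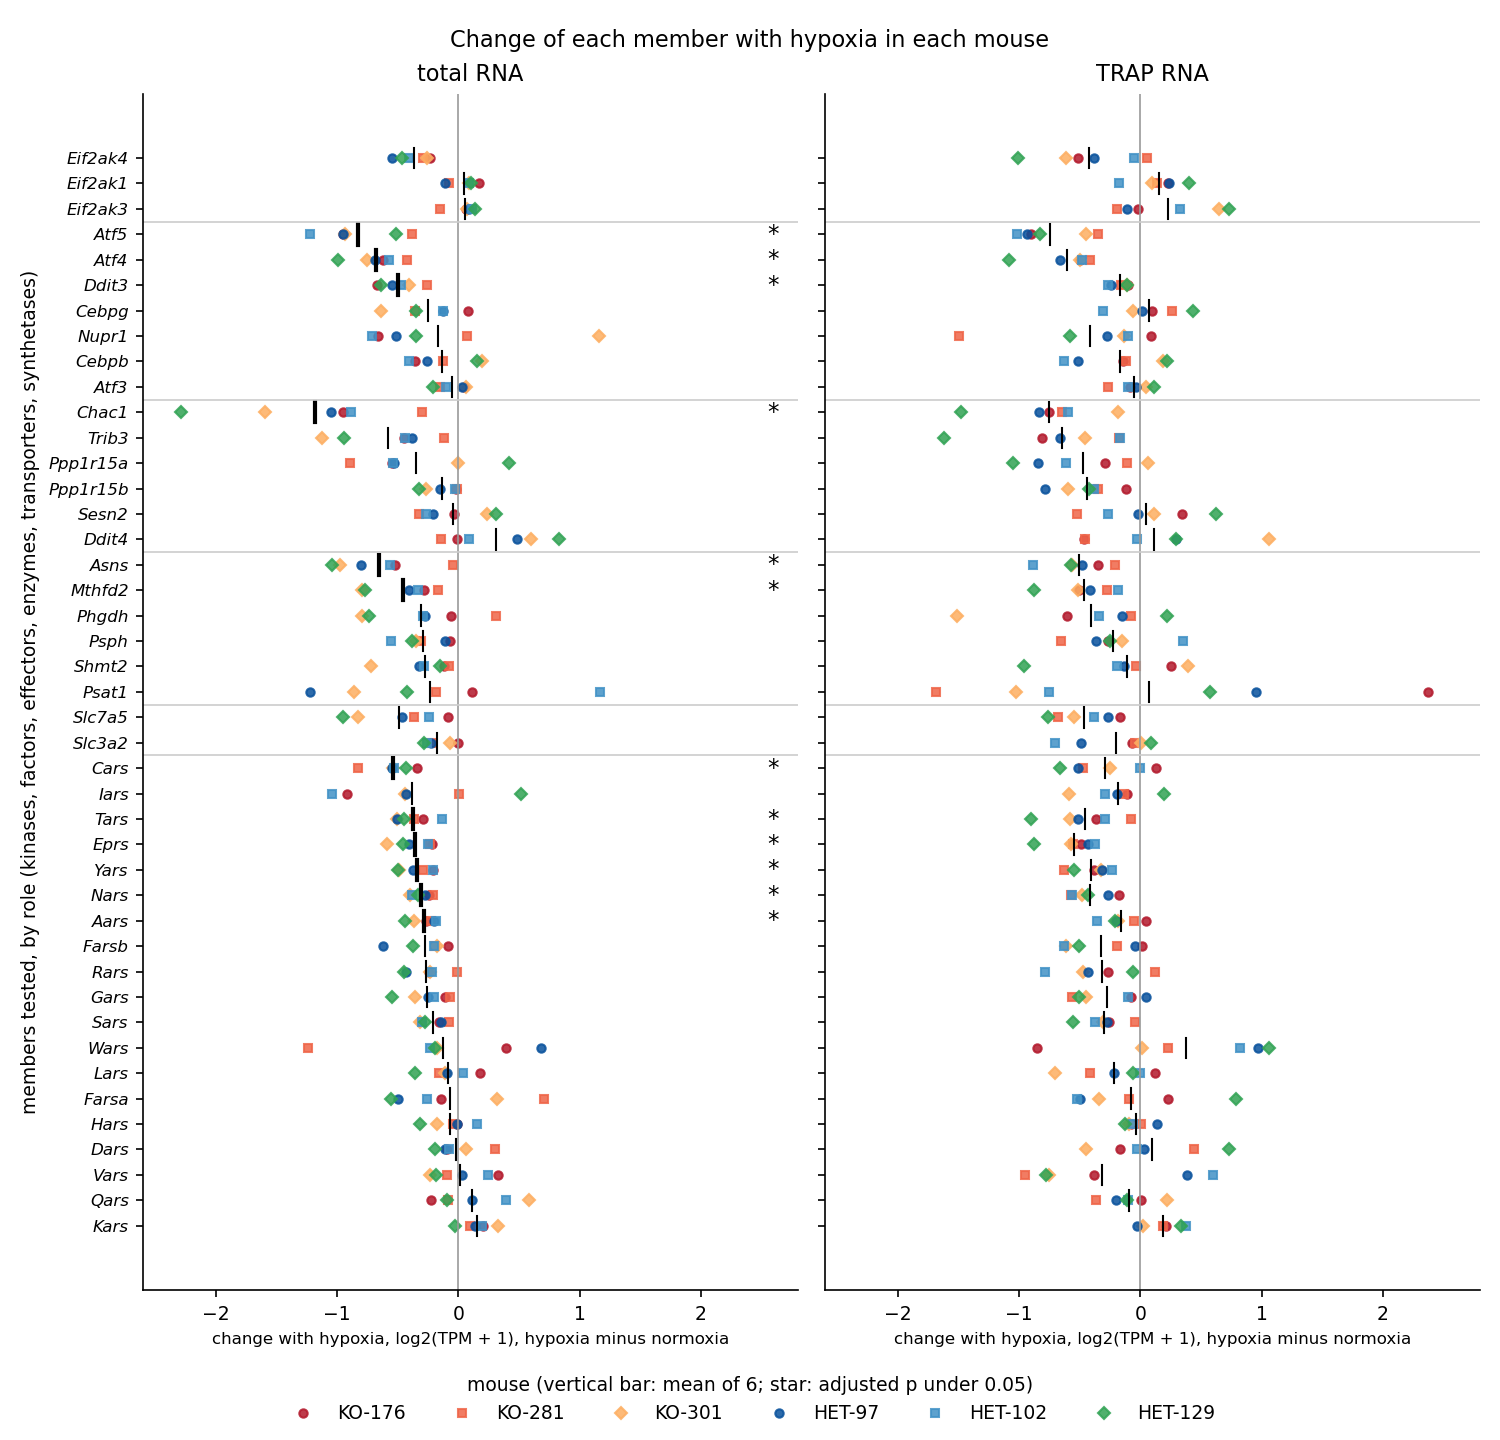
Change with hypoxia in log2(TPM + 1), hypoxia minus normoxia, of the 43 tested members in total RNA (left) and TRAP RNA (right). Points are the 6 mice, vertical bars their mean and stars an adjusted p under 0.05. The 12 starred members all lie left of 0 in total RNA, and no member carries a star in TRAP RNA.

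The sensor kinases were followed next. Eif2ak1 encodes the haem-regulated kinase HRI, Eif2ak3 the endoplasmic reticulum kinase PERK and Eif2ak4 the kinase GCN2, which binds uncharged transfer RNA. TRAP values of Eif2ak4 were 2.53, 4.32 and 0.864 TPM in the labelled knockouts and 3.11, 2.24 and 0.977 TPM in the controls under hypoxia, against 4.05, 4.12 and 1.85 TPM and 4.37, 2.36 and 2.98 TPM under normoxia. Eif2ak4 stood at 6.33, 4.92 and 3.57 TPM in the labelled knockouts and 7.47, 6.46 and 5.33 TPM in the controls in hypoxic total RNA, against 7.62, 6.24 and 4.46 TPM and 11.4, 8.89 and 7.76 TPM in the same mice in normoxic total RNA. Hypoxic total RNA was the lower in every mouse, and the hypoxic and normoxic ranges overlapped because mice differed. The change of Eif2ak4 was -0.37 ± 0.08 (SE, n = 6, adjusted p 0.0516) in total RNA, which missed the threshold, and -0.42 ± 0.18 (SE, n = 6, adjusted p 0.325) in TRAP RNA. Eif2ak1 in TRAP RNA was at 17.99, 16.7 and 15.4 TPM in the labelled knockouts and 28.1, 17.00 and 16.6 TPM in the controls under hypoxia, against 15.2, 15.1 and 14.4 TPM and 23.7, 19.4 and 12.3 TPM under normoxia. Eif2ak1 in total RNA measured 37.8, 31.6 and 30.7 TPM in the labelled knockouts and 41.1, 39.3 and 35.5 TPM in the controls under hypoxia, against 33.6, 33.4 and 28.8 TPM and 44.5, 37.00 and 32.96 TPM in the same mice under normoxia. Hypoxic Eif2ak1 was higher in 4 mice and lower in 2 in total RNA, with a change of 0.04 ± 0.06 (SE, n = 6, adjusted p 0.715). TRAP values of Eif2ak3 were 3.66, 4.54 and 2.38 TPM in the labelled knockouts and 4.29, 5.30 and 2.38 TPM in the controls under hypoxia, against 3.72, 5.34 and 1.15 TPM and 4.71, 4.02 and 1.04 TPM under normoxia. Eif2ak3 stood at 7.69, 7.36 and 3.83 TPM in the labelled knockouts and 10.1, 9.38 and 5.36 TPM in the controls in hypoxic total RNA, against 7.31, 8.28 and 3.60 TPM and 9.41, 8.64 and 4.79 TPM in the same mice in normoxic total RNA. The lowest values of Eif2ak3 were those of mice KO-301 and HET-129 at either oxygen level. Its change was 0.05 ± 0.08 (SE, n = 6, adjusted p 0.723) in total RNA.

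Atf4 had the highest level of the 44 members and the smallest adjusted p among them under hypoxia. Atf4 in TRAP RNA was at 296.5, 796.1 and 446.04 TPM in the labelled knockouts and 318.7, 352.4 and 332.3 TPM in the controls under hypoxia, against 418.8, 1064 and 630.2 TPM and 506.1, 492.1 and 705.00 TPM under normoxia. Atf4 in total RNA measured 339.8, 721.98 and 481.5 TPM in the labelled knockouts and 310.5, 453.97 and 410.7 TPM in the controls under hypoxia, against 523.9, 970.8 and 811.5 TPM and 502.04, 675.8 and 819.8 TPM in the same mice under normoxia. Every mouse had less Atf4 under hypoxia in both fractions, while mouse KO-281 under hypoxia stayed above the 3 lowest normoxic mice in total RNA. The change was -0.68 ± 0.07 (SE, n = 6, adjusted p 0.00997) in total RNA, with single mice between -0.995 and -0.43, and -0.61 ± 0.10 (SE, n = 6, adjusted p 0.0774) in TRAP RNA. Only 237 of the 12403 genes tested had a mean level in total RNA at or above that of Atf4. The Atf4 call held with any 1 mouse left out (adjusted p 0.0245 to 0.0481). It was lost without KO-301 and HET-129 together (adjusted p 0.0687) and without the mouse as a block (adjusted p 0.541). Atf5, a related factor of the same response, changed by a larger amount. TRAP values of Atf5 were 51.2, 184.6 and 80.7 TPM in the labelled knockouts and 69.2, 62.4 and 79.5 TPM in the controls under hypoxia, against 96.8, 235.6 and 110.3 TPM and 133.5, 127.2 and 141.8 TPM under normoxia. Atf5 stood at 51.7, 188.1 and 68.5 TPM in the labelled knockouts and 64.1, 61.00 and 98.6 TPM in the controls in hypoxic total RNA, against 101.02, 245.8 and 131.95 TPM and 124.9, 143.8 and 141.6 TPM in the same mice in normoxic total RNA. The ranges of Atf5 in total RNA overlapped, with KO-281 under hypoxia (188.1 TPM) above the normoxic values of the other mice (101.02 to 143.8 TPM). The change was -0.83 ± 0.11 (SE, n = 6, adjusted p 0.0160) in total RNA and -0.75 ± 0.11 (SE, n = 6, adjusted p 0.0774) in TRAP RNA.

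Ddit3 encodes CHOP, a C/EBP factor that acts downstream of ATF4 and promotes cell death under lasting stress. Ddit3 in TRAP RNA was at 116.96, 294.1 and 444.8 TPM in the labelled knockouts and 150.2, 109.5 and 204.3 TPM in the controls under hypoxia, against 125.5, 329.3 and 480.4 TPM and 177.7, 132.3 and 221.01 TPM under normoxia. Ddit3 in total RNA measured 85.5, 281.9 and 356.7 TPM in the labelled knockouts and 87.4, 101.9 and 230.98 TPM in the controls under hypoxia, against 137.03, 337.5 and 472.9 TPM and 127.97, 142.03 and 360.3 TPM in the same mice under normoxia. Mice KO-301, KO-281 and HET-129 were high and the other 3 mice low at both oxygen levels, so that the groups overlapped although each mouse was lower under hypoxia. The change of Ddit3 was -0.50 ± 0.06 (SE, n = 6, adjusted p 0.0138) in total RNA and -0.17 ± 0.07 (SE, n = 6, adjusted p 0.304) in TRAP RNA. The difference between these 2 changes was 0.33 ± 0.11, with an adjusted p of 0.839. Atf3, another factor induced by ATF4, moved little. TRAP values of Atf3 were 225.3, 141.3 and 172.6 TPM in the labelled knockouts and 317.7, 198.7 and 277.1 TPM in the controls under hypoxia, against 239.5, 170.2 and 167.2 TPM and 324.98, 213.8 and 255.7 TPM under normoxia. Atf3 stood at 363.7, 168.9 and 207.9 TPM in the labelled knockouts and 426.7, 294.3 and 366.3 TPM in the controls in hypoxic total RNA, against 351.6, 188.3 and 198.9 TPM and 419.1, 316.3 and 423.8 TPM in the same mice in normoxic total RNA. Its lowest values were those of mice KO-281 and KO-301. The change of Atf3 was -0.06 ± 0.05 (SE, n = 6, adjusted p 0.575) in total RNA.

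The other 3 factors did not pass the test. Cebpg encodes a C/EBP partner of ATF4. Cebpg in TRAP RNA was at 15.1, 22.3 and 13.9 TPM in the labelled knockouts and 13.98, 12.3 and 10.1 TPM in the controls under hypoxia, against 14.1, 18.5 and 14.6 TPM and 13.9, 15.5 and 7.18 TPM under normoxia. Cebpg in total RNA measured 32.6, 33.2 and 23.3 TPM in the labelled knockouts and 26.8, 24.8 and 19.1 TPM in the controls under hypoxia, against 30.8, 42.8 and 36.7 TPM and 29.3, 27.2 and 24.7 TPM in the same mice under normoxia. Hypoxic values in total RNA were lower in 5 mice, and under normoxia the labelled knockouts were all above the controls. The change of Cebpg was -0.25 ± 0.10 (SE, n = 6, adjusted p 0.176) in total RNA and 0.07 ± 0.13 (SE, n = 6, adjusted p 0.830) in TRAP RNA. Cebpb, a C/EBP factor of macrophage differentiation and inflammation, ranged from 78.0 to 224.2 TPM in total RNA and changed by -0.13 ± 0.09 (SE, n = 6, adjusted p 0.441). Nupr1, a small stress-induced chromatin protein, ranged from 32.9 to 212.0 TPM in total RNA and changed by -0.17 ± 0.24 (SE, n = 6, adjusted p 0.714). Its single mice lay between -0.71 and 1.16, the highest being mouse KO-301.

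**Figure D2:**
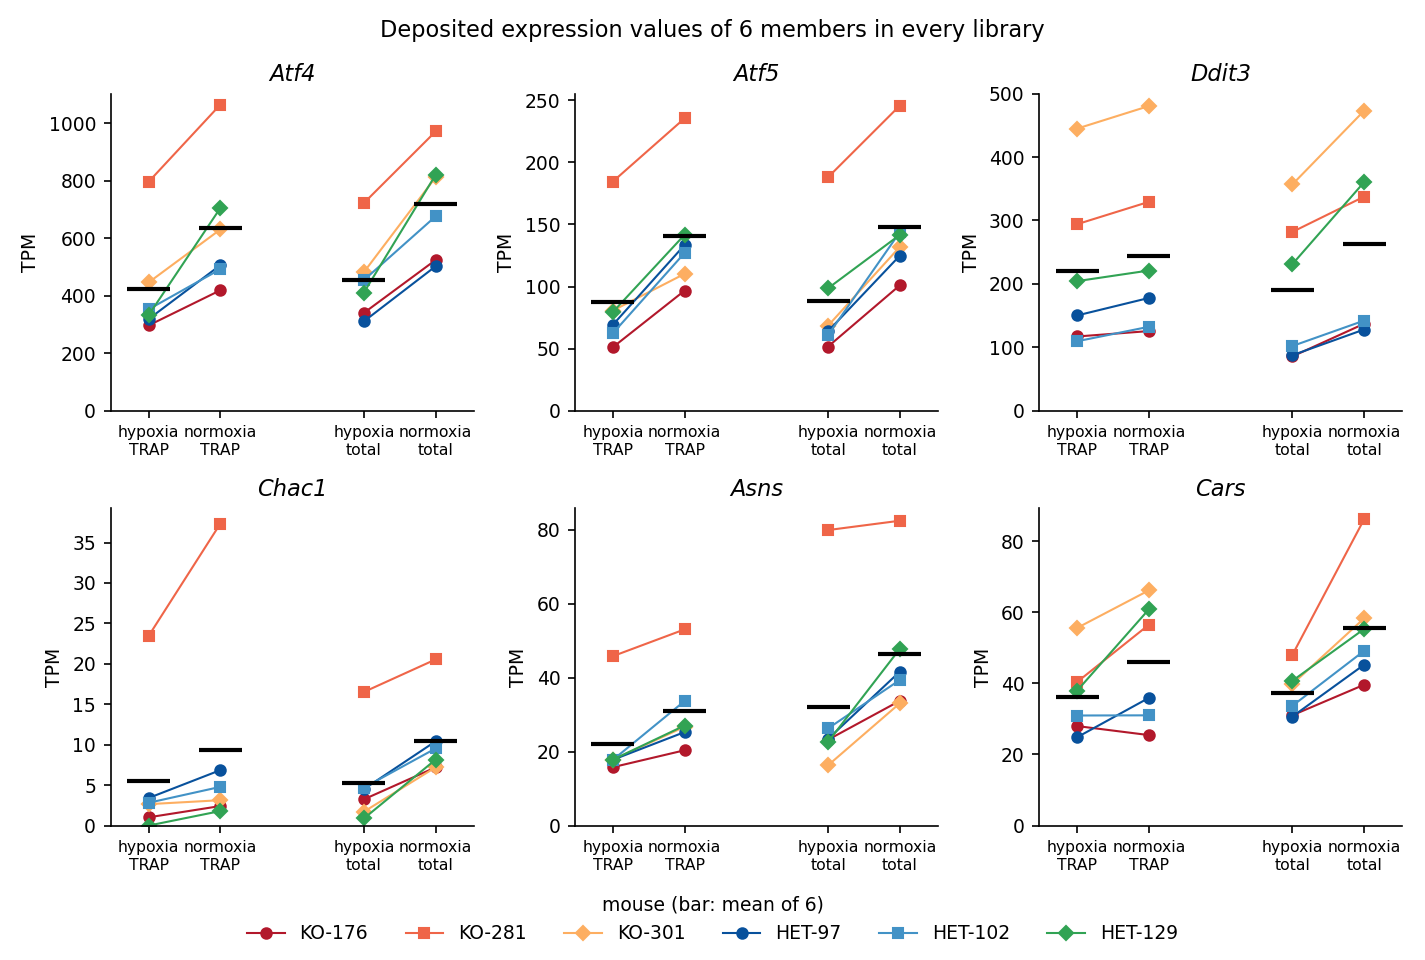
Deposited TPM of Atf4, Atf5, Ddit3, Chac1, Asns and Cars in each of the 24 libraries, with hypoxia left of normoxia and TRAP RNA left of total RNA. Lines join the libraries of a mouse and black bars are means of 6. Total RNA lines all rise towards normoxia, and mouse KO-281 lies highest for Atf4, Atf5, Chac1 and Asns in every group.

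Chac1 encodes a glutathione-degrading enzyme and had the largest mean change of the members called. TRAP values of Chac1 were 1.02, 23.5 and 2.65 TPM in the labelled knockouts and 3.41, 2.82 and 0 TPM in the controls under hypoxia, against 2.42, 37.4 and 3.14 TPM and 6.86, 4.79 and 1.80 TPM under normoxia. Chac1 stood at 3.24, 16.5 and 1.71 TPM in the labelled knockouts and 4.50, 4.68 and 0.875 TPM in the controls in hypoxic total RNA, against 7.20, 20.5 and 7.20 TPM and 10.4, 9.53 and 8.15 TPM in the same mice in normoxic total RNA. Every mouse was lower under hypoxia in both fractions, and mouse HET-129 was listed at 0 in hypoxic TRAP RNA. The ranges in total RNA overlapped, with KO-281 under hypoxia (16.5 TPM) above the normoxic values of the other mice (7.20 to 10.4 TPM). The change of Chac1 was -1.18 ± 0.23 (SE, n = 6, adjusted p 0.0393) in total RNA, with single mice between -2.29 and -0.30, and -0.75 ± 0.18 (SE, n = 6, adjusted p 0.188) in TRAP RNA. Trib3 encodes a pseudokinase that binds ATF4 and CHOP and dampens their action. Trib3 in TRAP RNA was at 11.96, 91.00 and 30.8 TPM in the labelled knockouts and 11.4, 15.6 and 9.36 TPM in the controls under hypoxia, against 21.7, 103.2 and 42.6 TPM and 18.5, 17.7 and 30.8 TPM under normoxia. Trib3 in total RNA measured 15.95, 95.3 and 20.7 TPM in the labelled knockouts and 15.8, 19.6 and 15.3 TPM in the controls under hypoxia, against 22.2, 103.8 and 46.3 TPM and 20.8, 27.03 and 30.4 TPM in the same mice under normoxia. Trib3 was lower under hypoxia in 6 of 6 mice in both fractions, and mouse KO-281 stood far above the others at both oxygen levels. Its change of -0.58 ± 0.13 (SE, n = 6, adjusted p 0.0591) in total RNA missed the threshold, as did that of -0.65 ± 0.19 (SE, n = 6, adjusted p 0.218) in TRAP RNA.

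Ppp1r15a encodes GADD34, the induced subunit that directs the phosphatase removing phosphate from eIF2, and Ppp1r15b its constitutive counterpart CReP. TRAP values of Ppp1r15a were 16.5, 41.00 and 15.3 TPM in the labelled knockouts and 16.7, 16.7 and 14.2 TPM in the controls under hypoxia, against 20.5, 44.5 and 14.6 TPM and 30.7, 26.1 and 30.3 TPM under normoxia. Ppp1r15a stood at 18.4, 35.2 and 20.1 TPM in the labelled knockouts and 23.8, 28.2 and 34.1 TPM in the controls in hypoxic total RNA, against 27.4, 66.5 and 20.1 TPM and 34.9, 41.4 and 25.3 TPM in the same mice in normoxic total RNA. In total RNA 5 mice were lower under hypoxia and mouse HET-129 higher, with a change of -0.35 ± 0.16 (SE, n = 6, adjusted p 0.250). Ppp1r15b in TRAP RNA was at 10.9, 20.8 and 12.3 TPM in the labelled knockouts and 11.2, 9.81 and 9.87 TPM in the controls under hypoxia, against 11.9, 26.7 and 19.1 TPM and 20.1, 13.1 and 13.6 TPM under normoxia. Ppp1r15b in total RNA measured 44.6, 46.1 and 47.8 TPM in the labelled knockouts and 43.3, 42.7 and 43.2 TPM in the controls under hypoxia, against 45.3, 46.4 and 57.8 TPM and 48.2, 43.5 and 54.5 TPM in the same mice under normoxia. Hypoxic total RNA lay between 42.7 and 47.8 TPM in all mice, and Ppp1r15b was lower than under normoxia in 6 of 6 mice in both fractions, with changes of -0.13 ± 0.07 (SE, n = 6, adjusted p 0.265) in total RNA and -0.44 ± 0.12 (SE, n = 6, adjusted p 0.206) in TRAP RNA. Sesn2 encodes sestrin 2, a sensor of leucine that restrains mTORC1. TRAP values of Sesn2 were 8.03, 19.3 and 6.06 TPM in the labelled knockouts and 13.9, 9.15 and 8.76 TPM in the controls under hypoxia, against 6.10, 28.2 and 5.54 TPM and 14.1, 11.2 and 5.35 TPM under normoxia. Sesn2 stood at 18.3, 25.1 and 20.2 TPM in the labelled knockouts and 23.4, 19.5 and 20.5 TPM in the controls in hypoxic total RNA, against 18.8, 31.7 and 17.02 TPM and 27.2, 23.7 and 16.4 TPM in the same mice in normoxic total RNA. Its groups overlapped, with a change of -0.05 ± 0.10 (SE, n = 6, adjusted p 0.816) in total RNA. Ddit4, which encodes the mTORC1 inhibitor REDD1 and is also known as a hypoxia-induced gene, had the highest change of the members at 0.31 ± 0.14 (SE, n = 6, adjusted p 0.242), with single mice between -0.14 and 0.83. Its level in total RNA was 14.7 ± 2.56 TPM under hypoxia and 12.2 ± 4.63 TPM under normoxia (SD, n = 6).

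Asns encodes asparagine synthetase, a standard ATF4 target, and Mthfd2 a mitochondrial enzyme of the folate cycle. Asns in TRAP RNA was at 15.8, 45.8 and 17.8 TPM in the labelled knockouts and 17.8, 17.8 and 17.8 TPM in the controls under hypoxia, against 20.4, 53.1 and 26.7 TPM and 25.3, 33.7 and 27.1 TPM under normoxia. Asns in total RNA measured 23.2, 79.9 and 16.3 TPM in the labelled knockouts and 23.4, 26.3 and 22.7 TPM in the controls under hypoxia, against 33.7, 82.5 and 33.1 TPM and 41.6, 39.4 and 47.8 TPM in the same mice under normoxia. The ranges of Asns in total RNA overlapped, with KO-281 under hypoxia (79.9 TPM) above the normoxic values of the other mice (33.1 to 47.8 TPM). The change of Asns was -0.66 ± 0.13 (SE, n = 6, adjusted p 0.0391) in total RNA and -0.51 ± 0.11 (SE, n = 6, adjusted p 0.175) in TRAP RNA, lower in 6 of 6 mice in both. TRAP values of Mthfd2 were 34.9, 101.7 and 67.3 TPM in the labelled knockouts and 38.3, 47.1 and 41.8 TPM in the controls under hypoxia, against 50.01, 123.3 and 96.5 TPM and 51.6, 53.6 and 77.8 TPM under normoxia. Mthfd2 stood at 50.98, 154.5 and 68.3 TPM in the labelled knockouts and 52.3, 61.5 and 60.6 TPM in the controls in hypoxic total RNA, against 62.4, 173.5 and 119.3 TPM and 69.9, 77.8 and 104.2 TPM in the same mice in normoxic total RNA. Mouse KO-281 was again the highest in every group. The change of Mthfd2 was -0.46 ± 0.10 (SE, n = 6, adjusted p 0.0443) in total RNA and -0.46 ± 0.11 (SE, n = 6, adjusted p 0.176) in TRAP RNA. Shmt2, the mitochondrial serine hydroxymethyltransferase that feeds the same cycle, did not pass. Shmt2 in TRAP RNA was at 18.8, 37.6 and 19.2 TPM in the labelled knockouts and 15.9, 18.7 and 8.88 TPM in the controls under hypoxia, against 15.7, 38.5 and 14.4 TPM and 17.6, 21.5 and 18.2 TPM under normoxia. Shmt2 in total RNA measured 18.3, 40.4 and 13.3 TPM in the labelled knockouts and 16.9, 18.7 and 15.2 TPM in the controls under hypoxia, against 19.9, 42.6 and 22.5 TPM and 21.4, 23.00 and 16.99 TPM in the same mice under normoxia. The change of Shmt2 was -0.28 ± 0.09 (SE, n = 6, adjusted p 0.137) in total RNA, lower in 6 of 6 mice, and -0.11 ± 0.18 (SE, n = 6, adjusted p 0.800) in TRAP RNA, lower in 4. The serine synthesis enzymes Phgdh, Psat1 and Psph changed by -0.31 ± 0.15, -0.24 ± 0.28 and -0.30 ± 0.08 (SE, n = 6) in total RNA, with adjusted p of 0.265, 0.657 and 0.0887. Psat1 had the largest standard errors of the members, with single mice between -1.23 and 1.17 in total RNA and between -1.69 and 2.38 in TRAP RNA.

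Slc3a2 encodes the heavy chain CD98hc that carries several amino acid transporters to the cell surface, Slc7a5 the light chain LAT1 for large neutral amino acids and Slc7a11 the light chain of the cystine importer xCT. TRAP values of Slc3a2 were 152.6, 193.6 and 392.6 TPM in the labelled knockouts and 146.5, 121.8 and 209.6 TPM in the controls under hypoxia, against 160.6, 199.4 and 390.9 TPM and 206.5, 198.8 and 196.9 TPM under normoxia. Slc3a2 stood at 259.1, 270.7 and 456.2 TPM in the labelled knockouts and 225.7, 251.3 and 302.5 TPM in the controls in hypoxic total RNA, against 259.5, 315.3 and 479.6 TPM and 264.7, 301.1 and 367.9 TPM in the same mice in normoxic total RNA. Mouse KO-301 had the highest Slc3a2 in every group. The change of Slc3a2 was -0.18 ± 0.05 (SE, n = 6, adjusted p 0.102) in total RNA, small but of the same sign in 6 of 6 mice, and -0.20 ± 0.12 (SE, n = 6, adjusted p 0.458) in TRAP RNA. Slc7a5 in TRAP RNA was at 3.89, 22.3 and 6.54 TPM in the labelled knockouts and 6.08, 7.19 and 5.48 TPM in the controls under hypoxia, against 4.50, 36.4 and 10.04 TPM and 7.51, 9.70 and 9.98 TPM under normoxia. Slc7a5 in total RNA measured 11.7, 38.7 and 11.1 TPM in the labelled knockouts and 12.7, 18.3 and 9.81 TPM in the controls under hypoxia, against 12.5, 50.2 and 20.4 TPM and 17.8, 21.8 and 19.9 TPM in the same mice under normoxia. Slc7a5 was lower under hypoxia in 6 of 6 mice in both fractions and missed the threshold at -0.49 ± 0.12 (SE, n = 6, adjusted p 0.0697) in total RNA and -0.47 ± 0.13 (SE, n = 6, adjusted p 0.206) in TRAP RNA. TRAP values of Slc7a11 were 0.0670, 0.950 and 0.207 TPM in the labelled knockouts and 0.0323, 0.129 and 0.116 TPM in the controls under hypoxia, against 0.114, 0.690 and 0.158 TPM and 0.0429, 0.0532 and 0.144 TPM under normoxia. Slc7a11 stood at 0.259, 2.66 and 0.539 TPM in the labelled knockouts and 0.246, 0.454 and 0.690 TPM in the controls in hypoxic total RNA, against 0.341, 2.19 and 0.552 TPM and 0.235, 0.551 and 0.658 TPM in the same mice in normoxic total RNA. Slc7a11 exceeded 1 TPM only in total RNA of mouse KO-281 and was not tested.

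The cytosolic tRNA synthetases each charge transfer RNA with its amino acid. In total RNA 6 of 19 were called lower and 0 higher, against 2.40% and 1.56% of all genes. Below 0 lay 16, where 47.8% of all genes lay above 0, and the median change was -0.26, against -0.01. In TRAP RNA 0 were called, against 0.00856% of all genes lower and 0.0257% higher. Below 0 lay 16, where 55.5% of all genes lay above 0, and the median was -0.27, against 0.03. Cars, for cysteine, had the largest change in total RNA. Cars in TRAP RNA was at 27.99, 40.4 and 55.6 TPM in the labelled knockouts and 24.9, 30.97 and 37.97 TPM in the controls under hypoxia, against 25.5, 56.5 and 66.2 TPM and 35.9, 31.02 and 60.9 TPM under normoxia. Cars in total RNA measured 31.03, 48.03 and 39.8 TPM in the labelled knockouts and 30.7, 33.7 and 40.7 TPM in the controls under hypoxia, against 39.6, 86.2 and 58.3 TPM and 45.3, 49.2 and 55.3 TPM in the same mice under normoxia. Every mouse was lower in hypoxic total RNA, and in TRAP RNA mouse KO-176 was higher under hypoxia while the other 5 were lower, HET-102 by 0.002 on the log2 scale. The change of Cars was -0.54 ± 0.07 (SE, n = 6, adjusted p 0.0158) in total RNA and -0.30 ± 0.13 (SE, n = 6, adjusted p 0.337) in TRAP RNA.

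Nars, for asparagine, was the synthetase gene with the highest level in total RNA. TRAP values of Nars were 65.1, 72.98 and 75.9 TPM in the labelled knockouts and 76.4, 71.3 and 92.8 TPM in the controls under hypoxia, against 73.7, 109.2 and 106.4 TPM and 92.3, 106.00 and 125.9 TPM under normoxia. Nars stood at 121.3, 130.00 and 104.5 TPM in the labelled knockouts and 136.7, 124.8 and 157.3 TPM in the controls in hypoxic total RNA, against 143.6, 150.5 and 137.9 TPM and 165.5, 162.98 and 198.2 TPM in the same mice in normoxic total RNA. Nars was lower under hypoxia in 6 of 6 mice in both fractions. Its change was -0.31 ± 0.05 (SE, n = 6, adjusted p 0.0233) in total RNA and -0.42 ± 0.09 (SE, n = 6, adjusted p 0.165) in TRAP RNA. Tars, for threonine, and Yars, for tyrosine, showed little overlap between oxygen levels in total RNA. Tars in TRAP RNA was at 17.2, 27.1 and 20.4 TPM in the labelled knockouts and 14.4, 18.1 and 18.2 TPM in the controls under hypoxia, against 22.4, 28.7 and 31.1 TPM and 21.1, 22.4 and 34.8 TPM under normoxia. Tars in total RNA measured 26.3, 30.3 and 25.2 TPM in the labelled knockouts and 24.8, 29.1 and 27.5 TPM in the controls under hypoxia, against 32.5, 39.4 and 36.1 TPM and 35.7, 32.1 and 37.9 TPM in the same mice under normoxia. The hypoxic values of Tars in total RNA (24.8 to 30.3 TPM) lay wholly below the normoxic ones (32.1 to 39.4 TPM). The share of all genes with such a gap was not counted. The change of Tars was -0.38 ± 0.07 (SE, n = 6, adjusted p 0.0329) in total RNA and -0.46 ± 0.13 (SE, n = 6, adjusted p 0.206) in TRAP RNA. TRAP values of Yars were 11.6, 14.2 and 18.3 TPM in the labelled knockouts and 14.6, 11.7 and 11.1 TPM in the controls under hypoxia, against 15.5, 22.6 and 23.1 TPM and 18.5, 13.96 and 16.7 TPM under normoxia. Yars stood at 21.1, 26.03 and 21.1 TPM in the labelled knockouts and 21.8, 22.95 and 20.7 TPM in the controls in hypoxic total RNA, against 24.5, 32.1 and 30.04 TPM and 28.6, 26.6 and 29.6 TPM in the same mice in normoxic total RNA. For Yars the 2 ranges met only where mouse KO-281 under hypoxia exceeded KO-176 under normoxia. The change of Yars was -0.34 ± 0.07 (SE, n = 6, adjusted p 0.0391) in total RNA and -0.41 ± 0.11 (SE, n = 6, adjusted p 0.201) in TRAP RNA.

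Eprs encodes the bifunctional enzyme for glutamate and proline. Eprs in TRAP RNA was at 24.2, 45.6 and 36.4 TPM in the labelled knockouts and 21.5, 24.4 and 27.2 TPM in the controls under hypoxia, against 34.4, 67.5 and 54.7 TPM and 29.4, 32.01 and 50.9 TPM under normoxia. Eprs in total RNA measured 49.9, 78.4 and 45.1 TPM in the labelled knockouts and 44.98, 44.3 and 46.99 TPM in the controls under hypoxia, against 58.4, 92.2 and 68.4 TPM and 59.97, 52.8 and 65.1 TPM in the same mice under normoxia. Mouse KO-281 was highest in every group, and each mouse was lower under hypoxia in both fractions. The change of Eprs was -0.36 ± 0.07 (SE, n = 6, adjusted p 0.0337) in total RNA and -0.55 ± 0.10 (SE, n = 6, adjusted p 0.117) in TRAP RNA. Aars, for alanine, had the smallest change among the called members. TRAP values of Aars were 15.4, 24.8 and 33.7 TPM in the labelled knockouts and 15.6, 14.5 and 24.97 TPM in the controls under hypoxia, against 14.9, 25.9 and 38.3 TPM and 18.1, 18.9 and 28.9 TPM under normoxia. Aars stood at 24.9, 36.2 and 36.97 TPM in the labelled knockouts and 34.4, 29.9 and 32.7 TPM in the controls in hypoxic total RNA, against 30.3, 42.4 and 47.95 TPM and 39.8, 34.05 and 44.8 TPM in the same mice in normoxic total RNA. Hypoxic values were lower in 6 of 6 mice in total RNA and 5 of 6 in TRAP RNA. The change of Aars was -0.28 ± 0.06 (SE, n = 6, adjusted p 0.0459) in total RNA and -0.16 ± 0.10 (SE, n = 6, adjusted p 0.492) in TRAP RNA.

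Sars, for serine, and Gars, for glycine, came next to Nars in total RNA level and missed the threshold. Sars in TRAP RNA was at 58.8, 131.3 and 101.4 TPM in the labelled knockouts and 64.01, 70.4 and 78.7 TPM in the controls under hypoxia, against 70.6, 135.7 and 125.97 TPM and 77.8, 91.4 and 116.1 TPM under normoxia. Sars in total RNA measured 83.9, 149.5 and 96.9 TPM in the labelled knockouts and 84.1, 84.2 and 94.7 TPM in the controls under hypoxia, against 93.7, 157.9 and 121.1 TPM and 92.9, 103.9 and 114.8 TPM in the same mice under normoxia. Sars was lower under hypoxia in 6 of 6 mice in both fractions. TRAP values of Gars were 45.3, 69.5 and 58.6 TPM in the labelled knockouts and 55.4, 51.9 and 48.5 TPM in the controls under hypoxia, against 47.8, 103.1 and 80.4 TPM and 53.6, 55.6 and 69.4 TPM under normoxia. Gars stood at 67.4, 101.5 and 59.9 TPM in the labelled knockouts and 72.3, 71.7 and 61.8 TPM in the controls in hypoxic total RNA, against 72.9, 106.3 and 76.98 TPM and 86.2, 82.8 and 90.6 TPM in the same mice in normoxic total RNA. Gars was lower in 6 of 6 mice in total RNA and in 5 in TRAP RNA. Their changes in total RNA were -0.21 ± 0.05 (SE, n = 6, adjusted p 0.0680) for Sars and -0.26 ± 0.07 (SE, n = 6, adjusted p 0.0922) for Gars. Dars, for aspartate, and Iars, for isoleucine, are given because they were called lower in TRAP RNA relative to the median of all genes. That call was made for 29.9% of all genes. Dars in TRAP RNA was at 34.8, 26.7 and 27.9 TPM in the labelled knockouts and 49.2, 33.5 and 37.9 TPM in the controls under hypoxia, against 39.2, 19.4 and 38.4 TPM and 48.4, 34.05 and 22.4 TPM under normoxia. Dars in total RNA measured 83.5, 50.01 and 72.3 TPM in the labelled knockouts and 92.5, 61.9 and 75.2 TPM in the controls under hypoxia, against 89.2, 40.3 and 69.2 TPM and 99.8, 65.4 and 86.2 TPM in the same mice under normoxia. Ranges of Dars overlapped in each fraction. TRAP values of Iars were 9.93, 12.9 and 6.56 TPM in the labelled knockouts and 12.02, 9.02 and 10.2 TPM in the controls under hypoxia, against 10.8, 14.3 and 10.3 TPM and 13.9, 11.3 and 8.83 TPM under normoxia. Iars stood at 14.00, 24.3 and 13.4 TPM in the labelled knockouts and 22.1, 13.3 and 20.3 TPM in the controls in hypoxic total RNA, against 27.3, 24.2 and 18.6 TPM and 30.3, 28.5 and 13.9 TPM in the same mice in normoxic total RNA. Ranges of Iars overlapped likewise. Their changes in total RNA were -0.02 ± 0.07 (SE, n = 6, adjusted p 0.910) for Dars and -0.39 ± 0.20 (SE, n = 6, adjusted p 0.292) for Iars. The 3 synthetases above 0 in total RNA were Kars at 0.16 ± 0.06, Qars at 0.11 ± 0.11 and Vars at 0.01 ± 0.10 (SE, n = 6), for lysine, glutamine and valine. The other synthetases, Farsa, Farsb, Hars, Lars, Rars and Wars, changed by between -0.28 and -0.07 with adjusted p of 0.075 to 0.834.

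The promoters of members were searched for the letters TGATGNAA, the core of the C/EBP-ATF response element bound by ATF4 with a C/EBP or CHOP partner. Windows were those of RefSeq on GRCm38.p6, reaching 250 bases before and 50 bases after the annotated start of the gene, and both strands were read. Of the 44 members 35 had a window, and 11 of these held the letters (31.4%), against 1304 of all 32851 windows (3.97%). Among the 10 called members with a window 5 held them, and among the 25 others with a window 6 did. The list holds genes reported as ATF4 targets, so a raised share can follow from the choice of members. Members were also counted by gene and the background by window. Members with a match included Asns, Atf3, Chac1, Gars, Iars, Nupr1, Slc7a11, Tars, Trib3 and Yars. Matches of the called members Asns, Chac1, Tars and Yars are shown, with that of Trib3, whose change was the largest among the tested members with a match that were not called. Each is 30 bases, printed 5′ to 3′ on the strand that holds the match, with the match in capitals. Each name is followed by the position of the match's first base on the gene's strand, negative before the start annotated by RefSeq, and by the coordinates of the 30 bases.
Chac1, position -193, chr2:119351038-119351067, minus strand: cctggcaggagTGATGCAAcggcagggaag
Asns, position -23, chr6:7693214-7693243, minus strand: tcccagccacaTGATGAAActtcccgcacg
Tars, position -15, chr15:11399655-11399684, plus strand: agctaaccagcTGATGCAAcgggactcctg
Yars, position 3, chr4:129189895-129189924, plus strand: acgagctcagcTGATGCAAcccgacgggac
Trib3, position 14, chr2:152344028-152344057, plus strand: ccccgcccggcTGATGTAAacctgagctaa

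From the RefSeq start the matches of Asns, Chac1 and Tars lay before it and those of Yars and Trib3 after it. From the gene start in the GENCODE annotation that of Asns lay after it, within an exon, and that of Trib3 before it, while the sides of the other 3 were the same. The open position of the core was C in Chac1, Tars and Yars, A in Asns and T in Trib3. The called members Atf4, Atf5, Ddit3, Mthfd2 and Eprs had windows without these letters. A match describes the sequence and is no evidence of binding in these cells. For Chac1, the called gene with the largest change, the 80 bases around the match are given on the gene's own strand, where the core reads in reverse complement, at chr2:119351013-119351092, plus strand.
Chac1, upstream stretch: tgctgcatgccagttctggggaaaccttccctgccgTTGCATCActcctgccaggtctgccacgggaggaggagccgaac

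Whether the oxygen response differed with genotype was tested through the interaction of genotype and oxygen, blocking on the mouse. Neither fraction gave a limma call, with 0 members and 0 genes (0%). At an unadjusted p under 0.05, 1 member was higher and 0 lower in total RNA, against 2.89% and 1.74% of all genes, and 1 was higher and 1 lower in TRAP RNA, against 1.87% and 1.83%. For Atf4 the interaction was 0.15 ± 0.14 in total RNA and 0.27 ± 0.18 in TRAP RNA (SE), with adjusted p of 0.965 and 0.999. Within the labelled knockouts Atf4 changed by -0.60 ± 0.10 and within the controls by -0.75 ± 0.10 in total RNA, with adjusted p of 0.115 and 0.0769. Within either genotype limma called 0 members in total RNA. The all-gene calls were 2 higher (0.0161%) and 1 lower (0.00806%) in the labelled knockouts, and 3 higher (0.0242%) and 2 lower (0.0161%) in the controls. At an unadjusted p under 0.05, 15 members were lower in the labelled knockouts, against 8.05% of all genes, and 22 in the controls, against 8.20%. Higher at that level were 1 member in the labelled knockouts (7.82% of all genes) and 1 in the controls (4.90%). In TRAP RNA 0 members and 0 genes (0%) were called within either genotype, with 8 and 13 members lower at an unadjusted p under 0.05, against 3.94% and 3.79% of all genes. Higher were 0 and 1, against 4.93% and 4.27%.

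The labelled knockouts were then compared with the controls at 1 oxygen level and in 1 fraction at a time, 3 mice against 3. Limma called 0 members and 0 genes (0%) in each of the 4 comparisons. At an unadjusted p under 0.05 Atf3 was lower in normoxic total RNA (1 member, 3.06% of all genes) and 0 members were higher (0.984%). Wars was higher in normoxic TRAP RNA (1 member, 0.634%) and 0 were lower (1.58%). Under hypoxia 0 members reached that level in total RNA (0.701% of genes higher, 2.40% lower) or TRAP RNA (1.19% and 3.24%). The 3 labelled knockouts were all above the controls in Ppp1r15b in hypoxic total RNA (1 member, 2.23% of genes), in Cebpg in normoxic total RNA (1, 2.38%), in Shmt2 in hypoxic TRAP RNA (1, 2.89%) and in Wars in normoxic TRAP RNA (1, 1.84%). They were all below the controls in Eif2ak4, Farsa and Nars in normoxic total RNA (3, 7.80%) and in 0 members in hypoxic total RNA (6.25%), hypoxic TRAP RNA (7.29%) and normoxic TRAP RNA (4.21%). For Atf4 the difference in total RNA was 0.34 ± 0.31 under hypoxia and 0.19 ± 0.30 under normoxia (SE), with adjusted p of 0.982 and 0.906. In TRAP RNA it was 0.50 ± 0.35 under hypoxia and 0.23 ± 0.36 under normoxia, with adjusted p of 0.980 and 1.00. The median difference over the members was 0.06 in hypoxic and 0.01 in normoxic total RNA, against -0.10 and -0.13 over all genes. In TRAP RNA the medians were 0.21 and 0.18, against -0.10 and -0.08. Members above 0 were 24 of 43 in hypoxic total RNA (36.1% of all genes), 24 in normoxic total RNA (34.3%), 30 in hypoxic TRAP RNA (38.7%) and 34 in normoxic TRAP RNA (41.0%). Without mouse KO-281 the medians of the members were -0.09 and -0.17 in hypoxic and normoxic total RNA and 0.03 and 0.01 in hypoxic and normoxic TRAP RNA.

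Mouse KO-281 stood apart from the other 5 mice in much of the list, a description made after the values were seen. It had the highest value of the 6 mice under both hypoxia and normoxia in 21 of 43 members in total RNA, against 7.80% of all genes, and in 19 of 43 in TRAP RNA, against 10.3%. In all 4 conditions it was highest for 17 members, against 2.76% of all genes. These were Atf4, Atf5, Cebpg, Ppp1r15a, Trib3, Chac1, Sesn2, Ddit4, Asns, Phgdh, Psph, Shmt2, Mthfd2, Slc7a5, Eprs, Gars and Sars. They included 5 of the 6 effectors, 5 of the 6 enzymes, 3 of the 7 factors and 3 of the 19 synthetases. Trib3 in KO-281 was 5.97 times the median of the other mice in hypoxic and 3.84 times in normoxic total RNA. For Asns the ratios were 3.44 and 2.09, for Phgdh 3.42 and 2.62, for Slc7a5 3.31 and 2.52, and for Atf4 1.76 and 1.44. The median over all members of KO-281 minus the median mouse was 0.29 in total RNA and 0.49 in TRAP RNA on the log2 scale, against -0.06 and 0.02 over all genes tested.

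Mouse KO-281 was also the mouse in which hypoxia lowered several of these genes least. Its drop was the smallest of the 6 for 7 of the 12 called members, namely Atf4, Atf5, Ddit3, Chac1, Asns, Mthfd2 and Nars, against 17.1% of the 298 genes called lower. Asns, at -0.04 in KO-281, lay between -1.04 and -0.52 in the other mice. Cars went the other way, with its largest drop, -0.83, in KO-281. Mouse KO-301 was highest at both oxygen levels for 5 of 43 members in total RNA, against 10.4% of all genes. In TRAP RNA it was highest for 9 of 43, against 9.80%. Ddit3, Slc3a2, Aars and Kars were among them in both fractions, and KO-301 was lowest for Phgdh. Its library of hypoxic TRAP RNA held 0.422 TPM of Phgdh, the enzyme that opens serine synthesis, and that of KO-281 held 27.6 TPM. In total RNA the summed neutrophil and fibroblast markers were also highest in mouse KO-301 at both oxygen levels, and their part in its values was not tested.

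**Figure D3:**
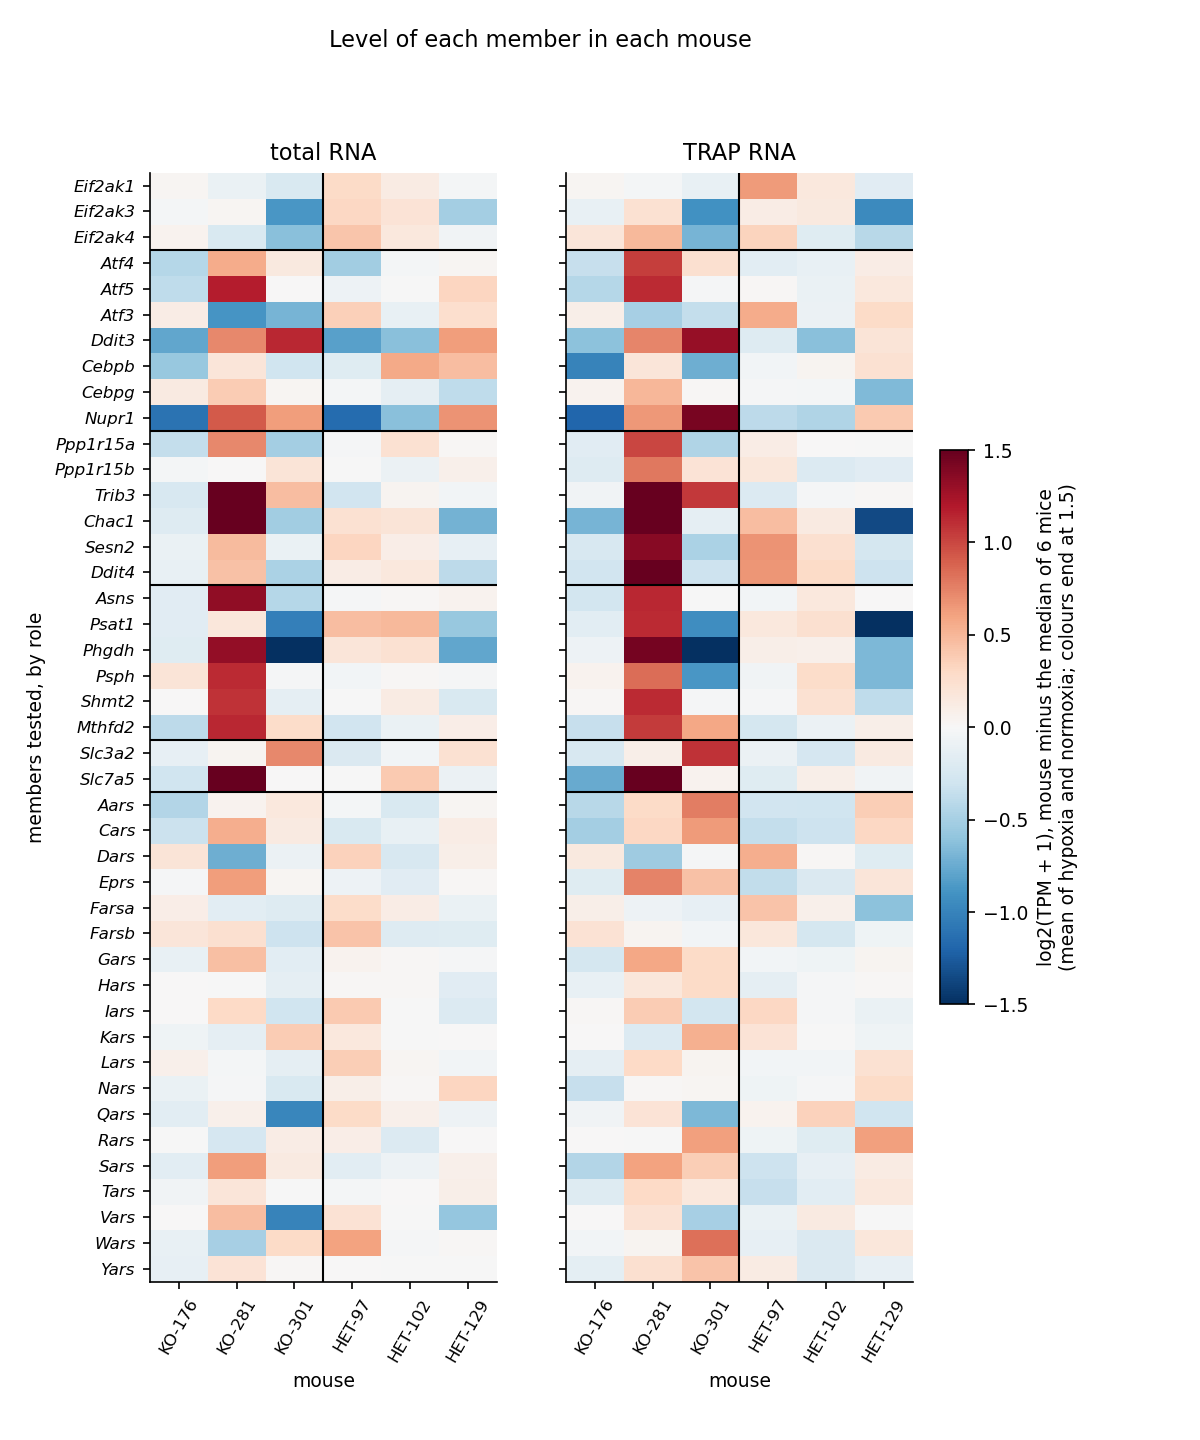
Level of each tested member in each mouse as log2(TPM + 1) minus the median of the 6 mice, averaged over hypoxia and normoxia, in total RNA (left) and TRAP RNA (right). Labelled knockouts are left of the controls, and colours end at 1.5. The column of KO-281 is red for most effectors and enzymes, and neither KO-176 nor KO-301, of the same labelled genotype, shows such a run.

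TRAP RNA was last set against total RNA of the same lysates over the 6 mice. As deposited, the median gene was lower by 0.57 on the log2 scale in TRAP RNA, with single mice between -0.68 and -0.45, and limma called 66.4% of the 11420 genes lower and 8.76% higher. The fractions differed in make-up, with Fth1 the top gene of every total RNA library and Gm42418 or Gm23935 that of several TRAP libraries. Its part in the lower median was not tested. After rescaling without mitochondrial and ribosomal protein genes the median was -0.49. Among the members 28 were called lower and 0 higher, a share near that of all genes, so that the direction says nothing about the members. Changes are therefore given relative to the median of all genes, a choice made after the values were seen. On that scale limma called 12 of 43 members higher and 9 lower, against 30.4% and 29.9% of all genes. The share of called members was thus no larger than that of other genes, and the order among them is what can be described.

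Relative to the median of all genes 6 of the 7 transcription factors lay above 0, where 49.9% of all genes did. As deposited 3 of the 7 did, where 18.5% of all genes did. Limma then called 0 of the 7 higher and 2 lower as deposited, against 8.76% and 66.4% of all genes. The 3 kinases lay below 0 on both scales, and as deposited so did most genes. No test compared these roles. Relative to the all-gene median, 5 of the 7 factors were called higher in TRAP RNA, against 30.4% of all genes. These were Nupr1 at 0.79 ± 0.16, Ddit3 at 0.66 ± 0.12, Cebpb at 0.60 ± 0.10, Atf5 at 0.53 ± 0.07 and Atf4 at 0.40 ± 0.08 (SE, n = 6), each above 0 in 6 of 6 mice. Their limma adjusted p values were between 0.000459 and 0.00328. The same direction in 6 of 6 mice was common on this scale, at 52.0% of the 11420 genes. Cebpg was called lower at -0.43 ± 0.08. All 3 kinases were called lower, as were 29.9% of all genes, with Eif2ak4 at -0.48 ± 0.13, Eif2ak1 at -0.42 ± 0.08 and Eif2ak3 at -0.31 ± 0.09. The lowest member was Ppp1r15b at -1.08 ± 0.13, with an adjusted p of 0.000265. The messenger RNAs of Atf4, Atf5, Ddit3 and Ppp1r15b are known to carry upstream open reading frames, and Ppp1r15b lay below 0 while the other 3 lay above it on this scale. Which other members carry such frames was not examined. Ppp1r15a, the induced counterpart of Ppp1r15b, lay above 0 in 5 of 6 mice and was not called.

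Among the other members called higher were Psph at 0.50 ± 0.15, Wars at 0.44 ± 0.16, Shmt2 at 0.43 ± 0.07, Trib3 at 0.39 ± 0.09, Cars at 0.38 ± 0.12, Sars at 0.36 ± 0.09 and Kars at 0.24 ± 0.08, the last called lower as deposited. Those called lower were Dars at -0.52 ± 0.09, Sesn2 at -0.46 ± 0.15, Slc7a5 at -0.40 ± 0.10 and Iars at -0.28 ± 0.08. Of the 19 synthetases 4 were called higher and 2 lower, smaller shares than the 30.4% and 29.9% of all genes. With 1 mouse left out at a time, 15 of these 21 calls held throughout. The call of Sesn2 was lost without KO-176, KO-301 or HET-129, that of Psph without KO-176, HET-97 or HET-102, that of Cars without KO-301 or HET-129 and that of Iars without HET-102. Among these omissions Kars kept its call only in that of KO-281 and Wars only in that of HET-97. Oxygen did not shift these positions past the test. The change with hypoxia of TRAP minus total RNA gave 0 called members and 0 called genes (0%) with limma, with 1 member higher and 1 lower at an unadjusted p under 0.05 against 3.32% and 2.11% of genes. The member higher was Ddit3 at 0.33 ± 0.11 and the member lower was Ppp1r15b at -0.31 ± 0.13. The median over the members was -0.001, against 0.04 over all genes.

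**Figure D4:**
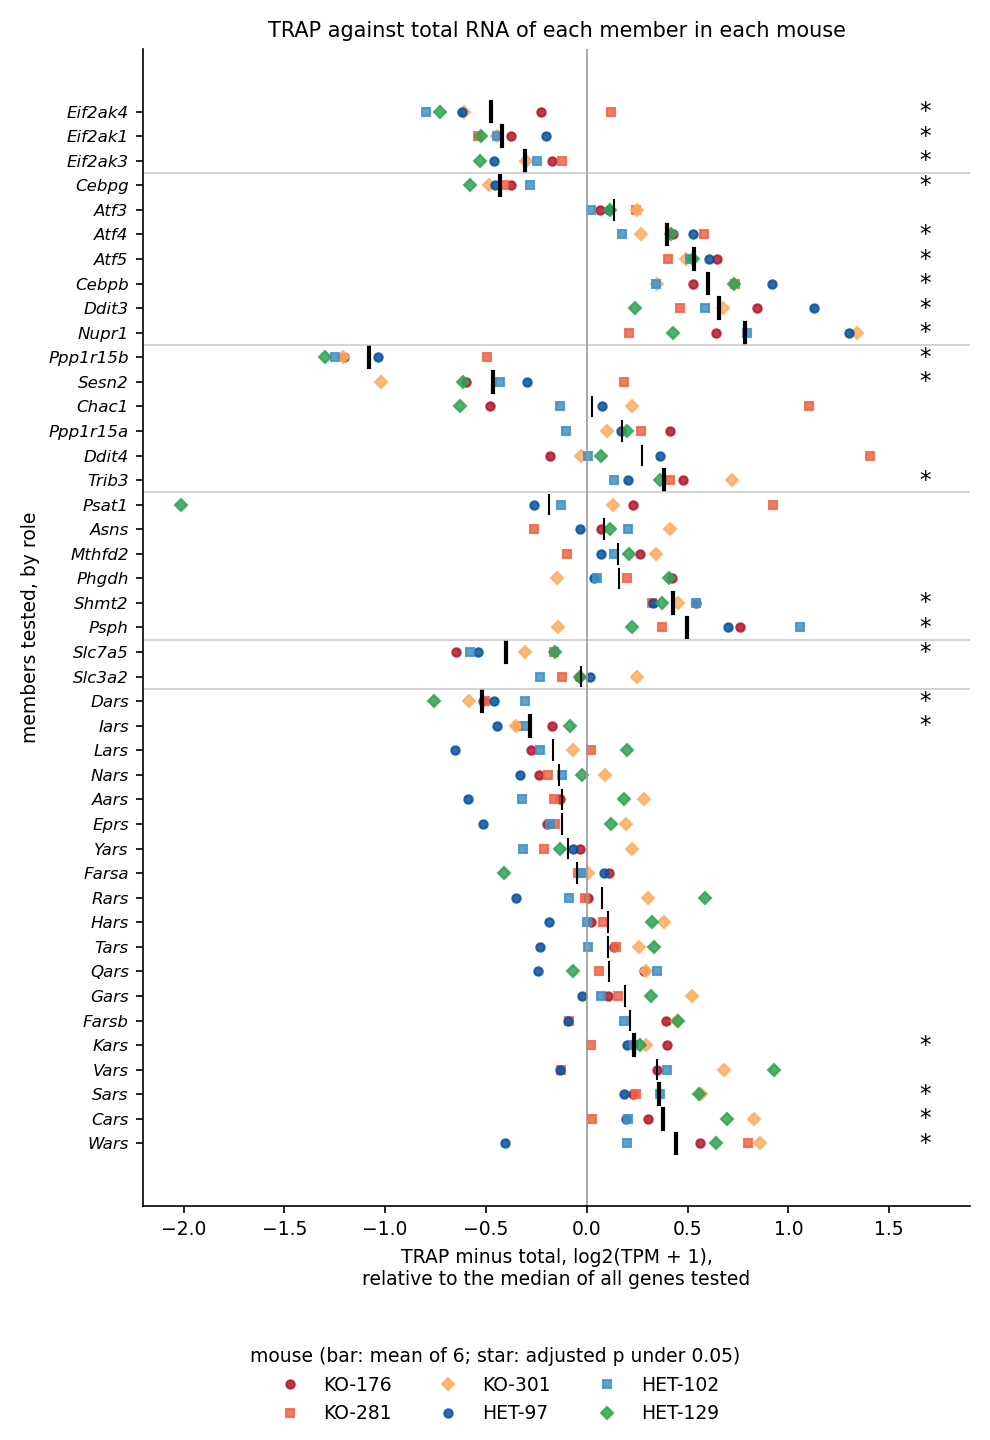
TRAP minus total RNA in log2(TPM + 1), relative to the median of all genes tested and averaged over hypoxia and normoxia, for the 43 tested members by role. Points are the 6 mice, bars their mean and stars an adjusted p under 0.05. The means of the 3 kinases and Ppp1r15b lie left of 0, and Atf4, Atf5, Cebpb, Ddit3 and Nupr1 lie right of 0 in all mice. Among all genes tested in both fractions, 52.0% lie on the same side of 0 in all mice.

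Related genes outside the list give the setting of the hypoxia result. Of 15 other reported ATF4 targets 10 were tested in total RNA. None of these 10 was called by limma, and 5 were lower at an unadjusted p under 0.05, against 12.7% of all genes. Below 0 lay 9, where 47.8% of all genes lay above 0, and the median was -0.25, against -0.01. In TRAP RNA 9 were tested, 0 were called and 2 were lower at an unadjusted p under 0.05, against 6.69% of all genes. Below 0 lay 4, where 55.5% of all genes lay above 0, and the median was 0.04, near the 0.03 of all genes. Gdf15, a secreted stress factor, averaged 52.3 TPM under hypoxia and 80.6 TPM under normoxia and changed by -0.61 ± 0.13 with an adjusted p of 0.0518. Of the genes for eIF2, eIF2B and the kinase PKR 1 of 8 was called lower in total RNA, against 2.40% of all genes. At an unadjusted p under 0.05, 4 of the 8 were lower and 1 higher, against 12.7% and 9.91% of all genes. Of the 8, 6 lay below 0, and the median was -0.20. The gene called by limma was Eif2s2, for the beta subunit of eIF2, at -0.47 ± 0.07 with an adjusted p of 0.0230. Its levels were 171.9, 300.7 and 184.8 TPM in the labelled knockouts and 161.3, 199.3 and 258.8 TPM in the controls under hypoxia, against 243.8, 402.8 and 324.1 TPM and 222.3, 254.5 and 311.8 TPM in the same mice under normoxia. The mitochondrial tRNA synthetases, which charge transfer RNA inside mitochondria, gave 0 calls among 16 tested in total RNA, with 0 at an unadjusted p under 0.05 and a median of -0.06, and in TRAP RNA likewise 0 and 0 of 16 with a median of 0.02. The scaffold proteins of the cytosolic synthetase complex, Aimp1, Aimp2 and Eef1e1, gave 0 calls of 3, 0 at an unadjusted p under 0.05 and a median of -0.07.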

How the data were processed

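The TPM values were deposited by the authors in 1 table for total RNA and 1 for TRAP RNA, each with 52636 genes, and column sums lay between 999629 and 999969. Per the submitters' processing notes, HISAT, DESeq2 and the build GRCm38 were used. Neither versions nor settings appear in the labels or file headers. Another 24 columns, the authors' ratios and log2 values per mouse, were not used. Libraries without read counts give no counting error, so precision rests on the 3 mice per genotype, which are separate animals.

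The values were analysed as log2(TPM + 1), and a fold change on this scale understates the change of low genes. Genes with at least 1 TPM in 3 libraries of a fraction entered limma 3.58.1 (R 4.3.3) with a trended prior, and p-values were adjusted over all genes tested by the Benjamini-Hochberg method, with a threshold of 0.05. Hypoxia was tested with the mouse as a block and genotype with the 6 libraries of 1 condition. TRAP and total RNA were compared as differences within a lysate. Both libraries of a mouse came from the same animal, and their deviations from the group means correlated at 0.565 to 0.795 (total RNA) and 0.397 to 0.717 (TRAP RNA). In TRAP RNA the hypoxic library of HET-129 correlated best with a library of another mouse.

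Members and lists were chosen with earlier results of these data known. Named with all values were Atf4, up to 12 members past the threshold in each comparison and up to 3 per role with the highest level. Of the members, 35 matched a promoter window of RefSeq on GRCm38.p6, and Cars, Hars, Lars, Nars, Ppp1r15b, Rars, Slc7a5, Vars and Wars had no entry there. The details of 1 promoter match are not reported here. Alternatives covered the pseudocount, the filter, quantile normalization, rescaling without mitochondrial and ribosomal protein genes, the block and the omission of mice. Centring of TRAP minus total RNA was added after the data were seen.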

Additional observations from a re-analysis of the deposited data

Results flagged for a closer look

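Of 86 series of 6 mice, 1 per tested member and fraction, 2 held a mouse whose change with hypoxia lay far from the others, a number below the about 1 in 20 that chance flags. In total RNA the change of Eif2ak3, the gene of the kinase PERK, was -0.1507 in KO-281, and the other 5 mice lay between 0.06542 and 0.1373. In TRAP RNA the change of Atf4 was -1.083 in HET-129, and the other 5 mice lay between -0.6655 and -0.4186. Both are values on the log2 scale, hypoxia minus normoxia.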

How the results depend on the processing

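The count of members called lower with hypoxia in total RNA, 12 of 43, depended on the mice and on the block. It was between 1 (without HET-97) and 7 (without KO-281) when 1 mouse was left out, 0 without KO-301 and HET-129, and 5 with no filter on low values. Without the replicate block it was 0, with a member median that stayed at -0.26, and Atf4 then had an adjusted p of 0.541. The smaller number of mice is part of the construction of these omissions, and otherwise the cause was not tested. It was 12 with a pseudocount of 0.5, 13 after rescaling and 10 after quantile normalization, and of the 12 called members 12, 12 and 9 were kept. With libraries paired by mouse in a random effect, the genotype comparisons again gave 0 called members, and TRAP against total RNA without the block gave 19 in place of 28. Relative to the all-gene median, TRAP against total RNA gave 21 called members (12 higher, 9 lower) and 17 without KO-176, KO-301, HET-102 or HET-129. Of the 28 members called lower as deposited, 12 lay above 0 relative to that median, 1 of them, Kars, called higher. Without KO-281 the member median of labelled knockouts against controls in total RNA turned below 0, at -0.09 under hypoxia and -0.17 under normoxia, in place of 0.06 and 0.01. The block changed no other count of called members by over 1.5 times. Depth was unknown, so the limits of low genes such as Slc7a11 could not be set.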
